A study of Mus musculus with 2 samples.

Results

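The actin, myosin and septin genes of the cell cortex were examined in the second polar body (PB2) and in the zygote of the mouse. PB2 is the small cell that the fertilised egg pinches off when it completes meiosis. The genes were taken by their symbols alone, though they were chosen with earlier results of these data known. The rule kept the cytoplasmic actins, the Arp2/3 complex, the WASP and WAVE proteins, the formins of the Diaph, Fmn and Fmnl families with their partner Spire, capping protein, cofilins, profilins, tropomyosins, the non-muscle alpha-actinins, the myosin heavy chains Myh9 and Myh10, myosin light chains, unconventional myosins, septins, anillin and the ERM proteins ezrin, radixin and moesin. It matched 69 of the 11262 genes of the table, and all 69 were found by identifier in the GENCODE M21 annotation of GRCm38.

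The series asks how the RNA of PB2 differs from that of its sister cell, the zygote, and holds 1 RNA-seq library of each. Both came from untreated embryos at the 1-cell stage, labelled C57BL/6 (C57BL/6N, an inbred substrain, in the methods text). The females had been superovulated by hormone injection, and the embryos were collected from the oviduct and cultured in KSOM medium. Late in that stage the zona pellucida was dissolved in acid Tyrode's solution, and PB2 was detached from the zygote by pipetting in trypsin. A pool of PB2s or of zygotes went into each library, and full-length cDNA was made from polyA RNA and amplified. The values are TPM, the share of a library's transcripts that belongs to a gene after adjustment for gene length, rounded to 1 decimal. With 1 library per cell type there was no replicate spread, no test was run, and each difference below describes these 2 libraries. In pooled material, fewer molecules per cell and fewer cells that express a gene cannot be told apart.

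Filamentous actin beneath the plasma membrane gives the egg its stiffness and holds the spindle off centre, and a contractile ring of actin and myosin II closes between the egg and the polar body. Arp2/3 builds branched networks when WASP or WAVE proteins activate it, while formins and Spire build unbranched filaments. Anillin and septins tie the ring to the membrane, and ERM proteins tie the rest of the cortex to it.

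Coding sequences show how close some of these genes are and therefore how far their reads can be told apart. The regulatory light chains of myosin II, Myl12a and Myl12b, lie side by side on chromosome 17 (GRCm38, chr17:70993656-71002878 and chr17:70973133-70990890, both on the minus strand). Their coding sequences were 96.5% identical, 498 of 516 bases, and they are shown with the cytoplasmic actins, whose coding sequences were 88.6% identical. The first 90 coding bases of each follow, from the GENCODE M21 transcripts, with capitals where the members of a pair differ.
Myl12a: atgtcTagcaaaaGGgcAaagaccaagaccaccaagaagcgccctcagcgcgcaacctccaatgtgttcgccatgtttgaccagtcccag
Myl12b: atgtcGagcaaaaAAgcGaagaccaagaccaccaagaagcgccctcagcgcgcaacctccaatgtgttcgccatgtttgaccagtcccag
Actb: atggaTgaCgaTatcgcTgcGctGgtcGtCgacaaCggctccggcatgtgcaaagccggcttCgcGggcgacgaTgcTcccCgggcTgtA
Actg1: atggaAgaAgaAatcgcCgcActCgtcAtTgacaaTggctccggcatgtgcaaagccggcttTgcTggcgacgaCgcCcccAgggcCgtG

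Only 4 of these 90 bases separate the light chains, against 16 for the actins. Elsewhere, 15 of the 69 genes shared a stretch of at least 150 bases and at least 95% identity with an annotated transcript of another gene, mostly a pseudogene. Myl12a and Myl12b shared 648 bases at 96.9%, and Actg1 had such stretches in 6 pseudogenes and Myl6 in 5. Myl12b also shared 740 bases at 100% with another annotated gene of its own symbol. Sept2 shared 3223 bases at 99.9% with another annotated gene of the same symbol, and Tpm3 shared 1910 bases at 99.2% with Tpm3-rs7. Capza1 shared 2859 bases at 99.5% with the pseudogene Gm3608, and Actr3 shared 2348 bases at 98.8% with the pseudogene Gm8822. Values of these genes are uncertain to the extent that reads could not be assigned to a single copy. How such reads were treated is not stated. No such stretch was found for Rdx, Wasl or Actn4.

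The cortex genes listed in the table had a higher median than all its genes in both libraries. Of the 69 genes, 66 reached 1 TPM in PB2, 67 in the zygote and 65 in both, and none was listed at 0. In either library 68 reached it, beside 10645 of the 11262 genes of the table. Genes absent from the table could not be counted, so these counts do not show how much of the gene set was detected. Their median was 22.6 TPM in PB2 against 18.8 in the zygote, beside 11.1 and 8.70 TPM over all genes. Their values added up to 7112 TPM in PB2 against 5801 in the zygote, or 0.711% and 0.580% of a full library. Radixin (Rdx) alone made up 38.2% of that sum in PB2 and 22.3% in the zygote. Without Rdx the sums were 4393 TPM in PB2 against 4506 in the zygote, so the higher sum of PB2 rested on that gene.

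**Figure D1:**
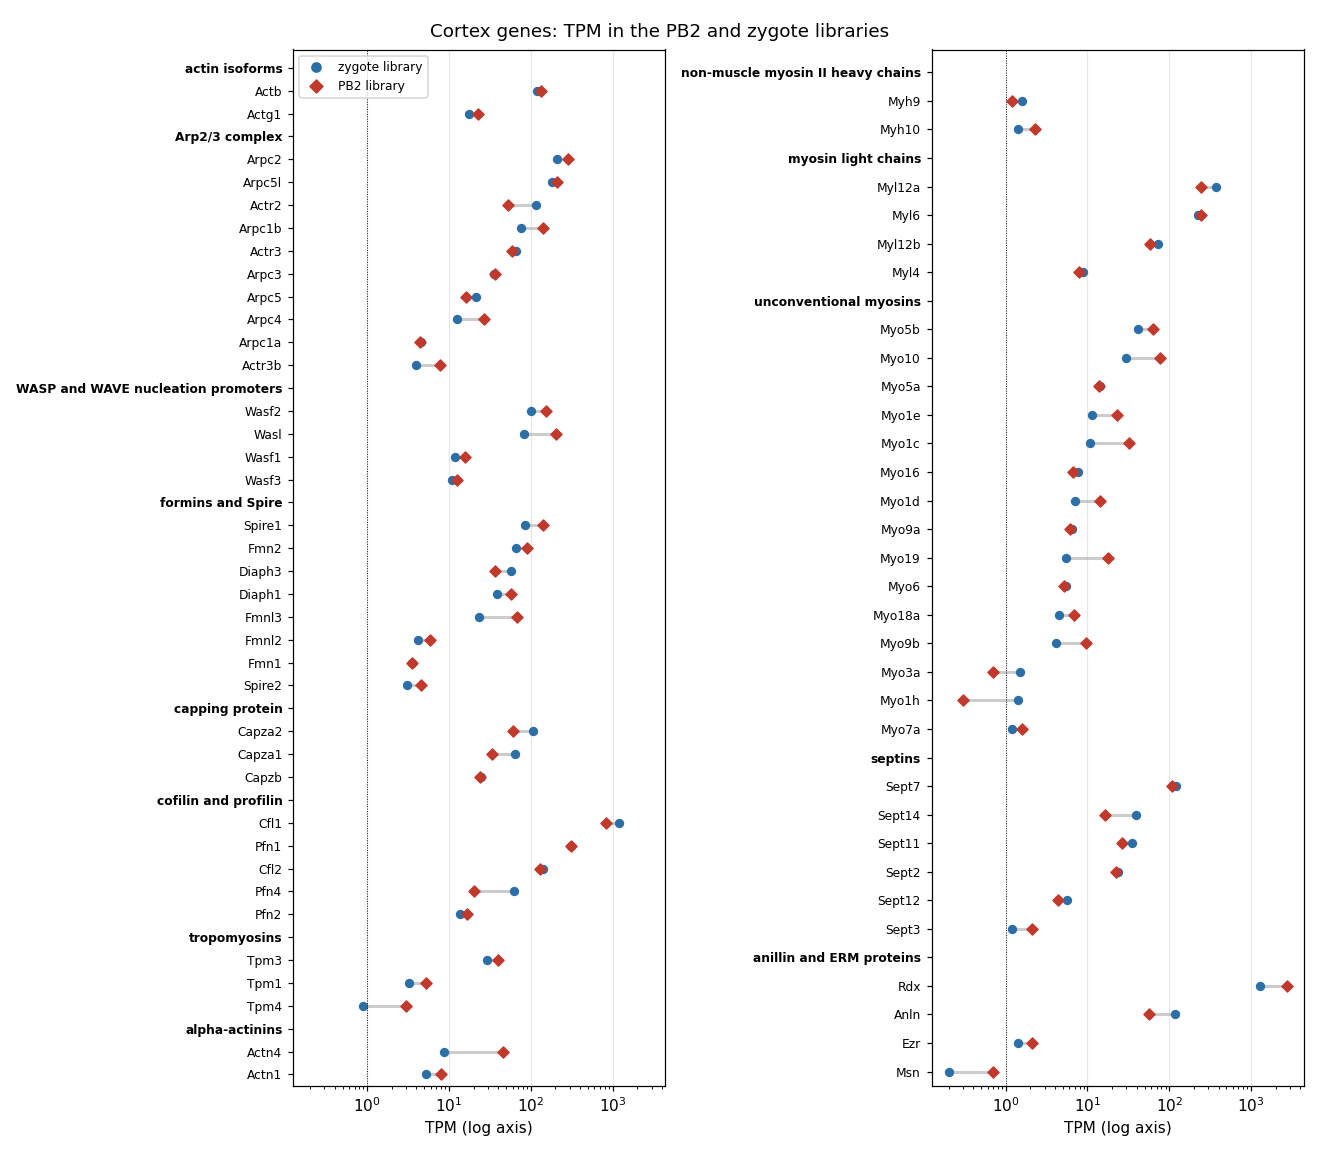
TPM of 68 of the 69 cortex genes in the PB2 library (red diamonds) and the zygote library (blue circles), by class, on a log axis with a dotted line at 1 TPM. Most pairs of points lie close together, Rdx is the highest gene in both libraries (2720 and 1295 TPM), and Actn4 has the widest gap among genes above 1 TPM in both.

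Genes were compared by the log2 ratio, log2((PB2 TPM + 1)/(zygote TPM + 1)), which is above 0 where PB2 is higher and which understates the difference of low genes. The 68 cortex genes with at least 1 TPM in either library were compared, and the remaining one, moesin (Msn), stood at 0.7 TPM in PB2 against 0.2 in the zygote. PB2 was the higher by 2-fold or more for 10 of the 68 (14.7%), beside 18.9% of all 10645 genes compared. The zygote was the higher for 4 (5.88%), beside 8.09% of all genes. The other 54 lay within 2-fold. Both shares were below those of the whole table, and the median log2 ratio, 0.20, was close to the 0.21 of all genes.

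That 0.21 is a shift of the whole table towards PB2, so the same genes were also read relative to it. Centred on the median of all genes, 6 cortex genes passed 2-fold towards PB2 (8.82%, beside 13% of all genes) and 8 towards the zygote (11.8%, beside 12.1%), and their median was -0.01. The split of the calls thus turned from 10 and 4 to 6 and 8, as Rdx, Tpm4, Arpc4 and Myo9b came within 2-fold and 4 genes, Capza1, Capza2 and Myo1h among them, passed it towards the zygote. A second scale removed the trend of the log2 ratio on the GC content of the transcript. On it, 4 cortex genes passed 2-fold towards PB2 (5.88%, beside 9.08% of all genes) and 4 towards the zygote (5.88%, beside 11%), and their median was -0.03. Those towards PB2 were Actn4, Wasl, Rdx and Tpm4, and those towards the zygote Pfn4, Sept14, Myh9 and Myo1h. On all of these scales the cortex genes held no larger share of genes past 2-fold than the table did.

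The genes past 2-fold on the deposited, the centred and the GC-adjusted scale were 2 in each direction. PB2 was the higher for Actn4 and Wasl and the zygote for Pfn4 and Sept14. For Wasl another scale, with the trend on transcript length removed, gave 0.93, just under 2-fold. On the deposited scale, Anln (-1.03), Arpc4 (1.04), Myo9b (1.06), Rdx (1.07) and Tpm4 (1.07) lay just past the 2-fold line, and Myo1e (0.96), Myo1d (0.93) and Capza1 (-0.92) lay just within it. Without the pseudocount the TPM ratios of Myo1e and Myo1d were 2.04 and 2.03, just past 2-fold.

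**Figure D2:**
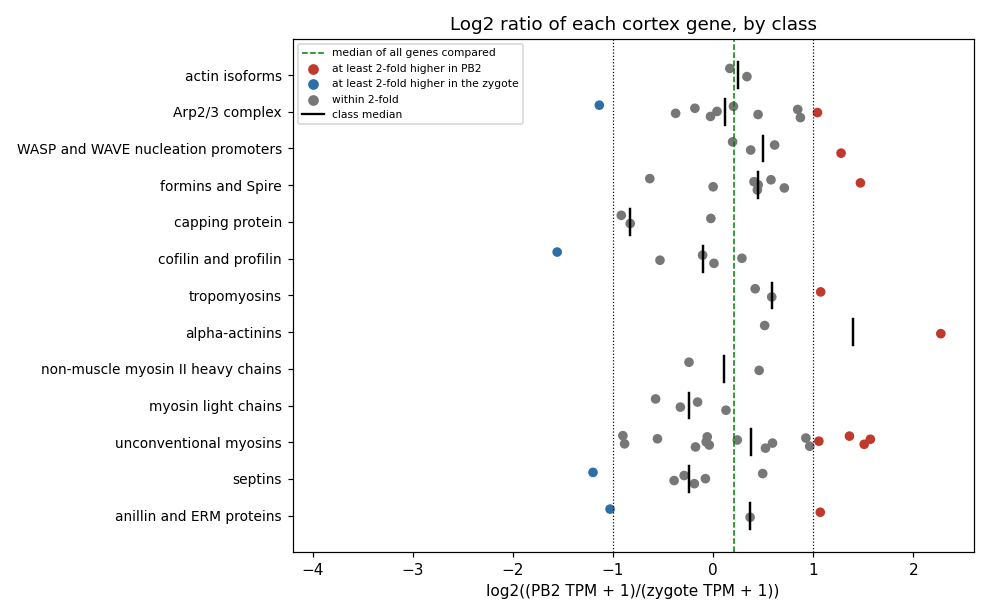
Log2 ratio of each of the 68 cortex genes compared, by class, with each class median as a black bar, the median of all genes (0.21) as a dashed line and 2-fold as dotted lines. The 4 genes past 2-fold towards the zygote sit in 4 different classes. Of the 10 past 2-fold towards PB2, 4 are unconventional myosins, the largest class with 16 of the 68 genes.

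The log2 ratios followed base composition, so values with the GC trend removed are given beside the genes past 2-fold from here on. The Spearman correlation between log2 ratio and transcript GC content was 0.46 over the 68 cortex genes and 0.44 over 10606 genes of the table, as a description across genes of the same 2 libraries. Of the 27 cortex genes at or below the table's median GC content, 3 passed 2-fold towards PB2 and 4 towards the zygote, with a median log2 ratio of -0.11. Of the 41 above it, 7 passed it towards PB2 and 0 towards the zygote, with a median of 0.38. Over all genes the medians were -0.10 and 0.58 in the same GC ranges. At or below the median GC content, 6.64% of all genes passed 2-fold towards PB2 and 12.3% towards the zygote. Above it the shares of all genes were 31.2% and 3.79%. Whether GC content contributed to the differences of single genes was not tested. The middle 90 coding bases of a GC-rich gene higher in PB2 (Actn4, coding bases 1324 to 1413, 53.3% GC), an AT-rich gene higher in PB2 (Wasl, coding bases 706 to 795, 37.8% GC) and an AT-rich gene higher in the zygote (Actr2, coding bases 547 to 636, 44.4% GC) show the range, with G and C in capitals.
Actn4: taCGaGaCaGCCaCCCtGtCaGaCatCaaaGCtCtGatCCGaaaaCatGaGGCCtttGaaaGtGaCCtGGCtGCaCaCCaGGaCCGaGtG
Wasl: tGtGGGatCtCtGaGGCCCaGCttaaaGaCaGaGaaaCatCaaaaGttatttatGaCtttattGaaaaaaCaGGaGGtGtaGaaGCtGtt
Actr2: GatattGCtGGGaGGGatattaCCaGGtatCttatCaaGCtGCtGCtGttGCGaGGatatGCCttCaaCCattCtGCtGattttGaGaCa

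**Figure D3:**
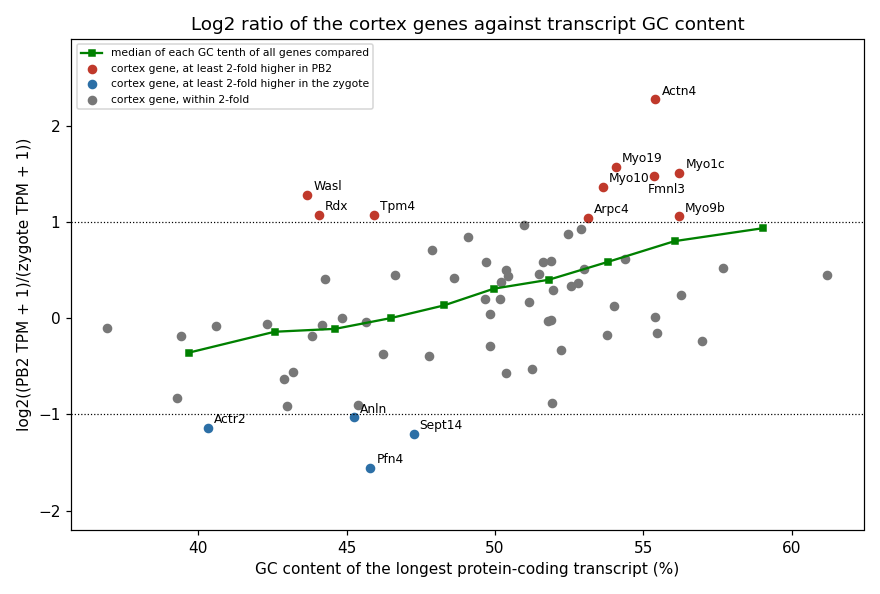
Log2 ratio of the 68 cortex genes against the GC content of the longest protein-coding transcript, with the median log2 ratio of all genes in 10 equal bins of GC content as a green line and dotted lines at 2-fold. The line climbs from -0.36 to 0.93, and Wasl, Rdx and Tpm4 lie far above it at low GC content. Above the median GC content of all genes lie 7 of the 10 genes past 2-fold towards PB2, and 41 of the 68 cortex genes.

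Both cytoplasmic actins, the building blocks of the filaments, were nearly equal in the libraries. Actb had 134.8 TPM in PB2 against 120.0 in the zygote. Actg1 had 22.5 TPM in PB2 against 17.6 in the zygote. Actb held 85.7% of the sum of the pair in PB2 and 87.2% in the zygote, so the balance of the isoforms hardly differed. The log2 ratios of 0.17 and 0.34 lay on either side of the table median of 0.21, and both were below 0 when GC-adjusted (-0.19 and -0.13).

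Arp2/3, the complex that starts new filaments from the side of old ones, had 10 genes in the table because several subunits have a second isoform. Together they made 834.5 TPM in PB2 against 724.9 in the zygote, and 6 had the higher value in PB2 and 4 in the zygote. Their median log2 ratio was 0.12 as deposited but below 0 when centred (-0.09) or GC-adjusted (-0.05). The most abundant subunit gene was Arpc2, part of the core that grips the mother filament, with 282.2 TPM in PB2 against 206.5 in the zygote.

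The subunits did not differ in one direction. Actr2, one of the actin-like pair that seeds the new filament (chr11:20062304-20112913), had 52.3 TPM in PB2 against 116.2 in the zygote, 2.22-fold higher in the zygote. Its partner Actr3 had 58.4 TPM in PB2 against 66.4 in the zygote. Actr2 was thus below Actr3 in PB2 and above it in the zygote, and on the GC-adjusted scale its log2 ratio was -0.82, under 2-fold. Arpc4, which pairs with Arpc2 (chr6:113378115-113390448), had 27.0 TPM in PB2 against 12.6 in the zygote. It was 2.14-fold higher in PB2, with 12.2% of its exon bases shared with Ttll3 on the same strand. Its log2 ratio was 0.83 when centred and 0.53 when GC-adjusted, within 2-fold on both.

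Where an Arp2/3 subunit has a second isoform, the same isoform led in both libraries. Arpc1b held the larger part of the Arpc1 pair, with 140.6 TPM in PB2 against 76.4 in the zygote, beside 4.4 and 4.5 TPM for Arpc1a. Reads of Arpc1b cannot be told from those of Pdap1 on the opposite strand over 18.2% of its exon bases unless strand was used in counting, which is not stated. Arpc5l had 208.6 TPM in PB2 against 181.1 in the zygote, and Arpc5 had 16.2 and 21.3 TPM. Actr3b, the minor form of Actr3, had 7.8 TPM in PB2 against 3.9 in the zygote.

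All 4 WASP and WAVE genes, the activators of Arp2/3, had the higher value in PB2 as deposited. Wasf3 was below 0 when centred (-0.02) and when GC-adjusted (-0.10), and Wasf2 was marginally below 0 when GC-adjusted (-0.0019). The group had a median log2 ratio of 0.49 that came to 0.28 when centred and 0.04 when GC-adjusted. Wasl (chr6:24613805-24665009) encodes N-WASP, which Cdc42 switches on. It had 200.7 TPM in PB2 against 82.2 in the zygote, 2.44-fold higher in PB2. Its transcript is AT-rich, with 43.7% GC, and removing the GC trend raised its log2 ratio from 1.28 to 1.41. Wasf2, encoding WAVE2, had 152.8 TPM in PB2 against 99.5 in the zygote. Wasf1 and Wasf3 had 15.6 and 12.5 TPM in PB2 and 11.8 and 10.8 TPM in the zygote, so Wasf1 held 9.26% of the sum with Wasf2 in PB2 and 10.6% in the zygote.

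Of the 8 formin and Spire genes, 1 was past 2-fold. Fmnl3, a formin-like protein that elongates filaments at the membrane (chr15:99317225-99370482), had 66.9 TPM in PB2 against 23.5 in the zygote, 2.85-fold higher in PB2. Its log2 ratio was 1.47 as deposited and 0.77 when GC-adjusted. The group's median of 0.45 came to 0.24 when centred and 0.16 when GC-adjusted.

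Fmn2 and Spire1, which together nucleate the cytoplasmic actin mesh that moves the oocyte spindle, were both abundant. Fmn2 had 88.9 TPM in PB2 against 65.2 in the zygote. Spire1 had 140.1 TPM in PB2 against 85.2 in the zygote, and it held over 96% of its sum with Spire2 in both libraries (96.8% and 96.5%). The formins of the Diaph family stood in opposite order in the libraries. Diaph1 had 58.1 TPM in PB2 against 38.6 in the zygote, while Diaph3 had 36.8 and 57.6 TPM. Diaph1 therefore held 61.2% of the pair in PB2 and 40.1% in the zygote, although neither gene was past 2-fold.

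Capping protein closes the growing end of a filament and works as a dimer of an alpha and a beta chain. Both alpha chain genes had the higher value in the zygote. Capza1 had 33.1 TPM in PB2 against 63.4 in the zygote, and Capza2 had 60.1 and 107.5 TPM. Capzb, the beta chain, had 24.0 TPM in PB2 against 24.4 in the zygote. The group's median log2 ratio was -0.83, -1.04 when centred and -0.46 when GC-adjusted, below 0 on each. Both alpha chains passed 2-fold on the centred scale and neither did as deposited. The alpha chains kept their proportion, with Capza1 at 35.5% of the pair in PB2 and 37.1% in the zygote.

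Cofilin, which severs old filaments, and profilin, which loads actin monomers for elongation, include Cfl1, the most abundant cortex gene after Rdx. Cfl1 had 828.7 TPM in PB2 against 1198 in the zygote. Pfn1 was level as deposited, with 309.7 TPM in PB2 against 307.9 in the zygote. Cfl2 had 131.0 and 141.0 TPM, and Pfn2 had 16.7 and 13.5 TPM. For Cfl1, 16.5% of exon bases are shared with Snx32 on the opposite strand. The group's median log2 ratio was -0.11, -0.31 when centred and -0.69 when GC-adjusted.

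Pfn4, a profilin known mainly from the testis (chr12:4769022-4778813), was the cortex gene furthest towards the zygote. It had 20.3 TPM in PB2 against 61.7 in the zygote, 3.04-fold higher in the zygote. Its log2 ratio was -1.56 as deposited and -1.54 when GC-adjusted, beside 0.008 and -0.69 for Pfn1. Of its exon bases, 5.15% are shared with Fam228b.

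Tropomyosins, the coiled proteins that lie along filaments, and alpha-actinins, which crosslink them, had the higher value in PB2 in all 5 genes on the deposited, centred and GC-adjusted scales. Tpm3 led its family, with 39.4 TPM in PB2 against 29.2 in the zygote. Tpm4 (chr8:72134975-72153142) was low, with 3.0 TPM in PB2 against 0.9 in the zygote, a ratio of 3.33 that rounding to 1 decimal leaves between 3.11 and 3.59. With so few TPM behind it the log2 ratio depended on the pseudocount and was 1.07 with 1 and 1.63 with 0.1. Centred, it was 0.86, within 2-fold, and GC-adjusted 1.09.

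Actn4 had the largest log2 ratio of all cortex genes and was the only one past 4-fold on that measure. It is a crosslinker of non-muscle cells (chr7:28893248-28962340) and had 45.9 TPM in PB2 against 8.7 in the zygote, 5.28-fold higher in PB2. Its sister gene Actn1 had 8.0 TPM in PB2 against 5.3 in the zygote, so Actn1 made up 14.8% of the pair in PB2 and 37.9% in the zygote. Actn4 has a GC-rich transcript (55.4%), and its log2 ratio of 2.27 became 1.57 with the GC trend removed, still past 2-fold. Of the exon bases of Actn4, 5.16% are shared with Capn12 on the opposite strand.

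**Figure D4:**
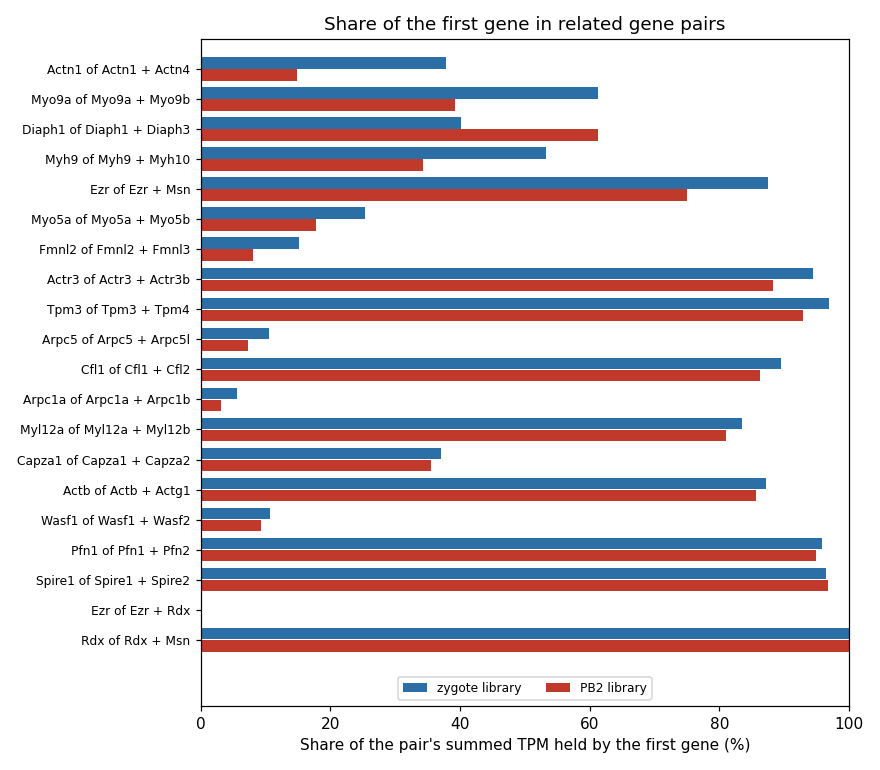
Share of the first gene in the summed TPM of 20 pairs of related cortex genes, in the zygote library (blue bars) and the PB2 library (red bars), ordered by the size of the difference. Actn1 with Actn4, Myo9a with Myo9b and Diaph1 with Diaph3 differ by over 20 points between the libraries, and the actins, profilins and Spires by under 2 points.

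Myosin II, the motor of the contractile ring, is a hexamer of heavy chains, regulatory light chains and essential light chains. Its heavy chain genes were near the lower end of the values compared. Myh9 had 1.2 TPM in PB2 against 1.6 in the zygote, and Myh10 had 2.3 and 1.4 TPM. The third non-muscle heavy chain, Myh14, which the symbol rule does not take, had 1.2 and 0.8 TPM. Higher than these stood Myh11, the smooth muscle heavy chain, with 22.4 TPM in PB2 against 14 in the zygote. Myh14 and Myh11 were looked up after values had been seen.

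The light chain genes were far more abundant per length than the heavy chains. The 4 light chains summed to 558.1 TPM in PB2 against 674.3 in the zygote, beside 3.5 and 3.0 TPM for Myh9 and Myh10 together. Myl12a had 246.9 TPM in PB2 against 368.2 in the zygote, and Myl12b had 57.5 and 72.4 TPM. Of the exon bases of Myl12b, 26.7% are shared on the same strand with another annotated gene of that symbol. Of those of Myl12a, 13.75% are shared with a gene annotated as Myl12b, so both values are uncertain. Myl6, the essential light chain of non-muscle cells, had 245.9 and 224.9 TPM. None of the light chains was past 2-fold, and their median of -0.24 was also below 0 when centred (-0.45) and GC-adjusted (-0.81). The transcripts of Myh9 and Myh10 used here are 7433 and 7791 bases long and that of Myl12a 1937, and whether transcript length affected the levels was not tested.

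Unconventional myosins are the motors that carry vesicles or tether membranes. Of the 16 in the table, 4 were past 2-fold towards PB2 and 0 towards the zygote, beside 18.9% and 8.09% of all genes. Their median log2 ratio was 0.38, 0.17 when centred and 0.09 when GC-adjusted. Myo10, the motor of filopodial tips (chr15:25622525-25813673), had 77.6 TPM in PB2 against 29.6 in the zygote. Myo19, which rides on mitochondria (chr11:84880148-84911226), had 18.0 and 5.4 TPM. Myo1c, a membrane tether (chr11:75650504-75673910), had 32.0 and 10.6 TPM. These were 2.62-, 3.33- and 3.02-fold higher in PB2. All have GC-rich transcripts, and with the GC trend removed their log2 ratios were 0.81, 0.98 and 0.75, each within 2-fold.

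Myo9b (chr8:71272714-71360713) had 9.6 TPM in PB2 against 4.1 in the zygote. Its log2 ratio of 1.06 came to 0.30 when GC-adjusted. The related Myo9a had 6.2 TPM in PB2 against 6.5 in the zygote. Myo9a thus held 39.2% of its sum with Myo9b in PB2 and 61.3% in the zygote. Myo1h was at the floor of the values, with 0.3 TPM in PB2 against 1.4 in the zygote, a ratio of 4.67 without the pseudocount. It shares 25.8% of its exon bases with Kctd10 on the opposite strand. The most abundant myosin of the zygote was Myo5b, a vesicle motor, with 63.4 TPM in PB2 against 41.7 in the zygote, beside 13.7 and 14.1 TPM for Myo5a.

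Septins are GTPases that assemble into filaments and rings. In 5 of the 6 septin genes the value was higher in the zygote, with a median log2 ratio of -0.24, -0.45 when centred and -0.16 when GC-adjusted, where Sept2 (0.23) and Sept7 (0.18) turned towards PB2. Sept7, the subunit that most septin filaments need, was the most abundant, with 107.0 TPM in PB2 against 122.0 in the zygote. Sept11 had 26.4 and 34.9 TPM, and Sept2 had 22.6 and 23.9 TPM. Of the exon bases of Sept2, 41.8% are shared on the same strand with another annotated gene of that symbol, so its value is uncertain. Sept14 (chr5:129683391-129708512) was the only septin past 2-fold, with 16.5 TPM in PB2 against 39.2 in the zygote, 2.38-fold higher in the zygote. Its log2 ratio was -1.20 as deposited and -1.27 when GC-adjusted.

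Anillin, the scaffold that joins actin, myosin and septins in the contractile ring, was also higher in the zygote. Anln (chr9:22332012-22389188) had 56.9 TPM in PB2 against 117.2 in the zygote, 2.06-fold higher in the zygote. Its log2 ratio was -1.03 as deposited and -0.98 when GC-adjusted, so the 2-fold line lay between the scales.

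Radixin stood apart by its abundance. Rdx (chr9:52047173-52088735) had 2720 TPM in PB2 against 1295 in the zygote, 2.10-fold higher in PB2, and ranked 44th of 11262 genes in PB2 and 104th in the zygote. Its transcript has 44.1% GC, and its log2 ratio was 1.07 as deposited, 0.86 when centred and 1.18 when GC-adjusted. Ezr had 2.1 TPM in PB2 against 1.4 in the zygote, and Msn was under 1 TPM in both. Radixin was therefore nearly the whole of the ERM family at the RNA level, with Ezr at 0.0771% of the sum of Ezr and Rdx in PB2 and 0.108% in the zygote. The median of the anillin and ERM genes, 0.37, was 0.16 when centred and turned to -0.11 when GC-adjusted.

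Genes that act on the cortex from outside the symbol rule were read from a hand-written list of 149, of which 113 were in the table and 108 were compared. Past 2-fold towards PB2 lay 22 (20.4%) and towards the zygote 4 (3.70%), beside 18.9% and 8.09% of all genes, and their median log2 ratio was 0.47, 0.26 when centred and 0.21 when GC-adjusted. With the GC trend removed the counts were 9 and 4, beside 9.08% and 11% of all genes. The listed kinases and phosphatases were grouped by hand under myosin and cofilin, and an action of each on these proteins was not checked. They had 7 of 19 past 2-fold towards PB2 and 0 towards the zygote, with a median of 0.80 that came to 0.40 when GC-adjusted. On that scale Pak4, Stk35, Limk2 and Rock1 lay past 2-fold, of which Limk2 and Rock1 are named after their values were seen. As deposited, among 21 genes of filament turnover and severing there were 4 and 0, and among 16 partners of WASP and WAVE proteins 2 and 0. Crosslinkers had 2 and 0 of 10, other formins 2 and 1 of 9, and membrane links 2 and 2 of 13.

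The regulators furthest towards PB2 were Pak4, Rac3, Slc9a3r1 and Stk35, with log2 ratios from 1.90 to 2.41 as deposited and from 1.10 to 1.45 when GC-adjusted. Pak4, a kinase downstream of Cdc42, had 80.7 TPM in PB2 against 14.4 in the zygote. Rac3 had 41.9 and 7.5 TPM, and Slc9a3r1, a membrane scaffold that binds ERM proteins, had 32.3 and 7.4 TPM. Stk35 had 119.0 and 31.2 TPM. Towards the zygote stood Vcl, Cdc42, Epb41l3 and Scin. Vcl, encoding vinculin, had 6.0 TPM in PB2 against 21.0 in the zygote, with log2 ratios of -1.65 as deposited and -1.81 when GC-adjusted. Cdc42, the GTPase that activates N-WASP, had 214.1 and 482.8 TPM, the opposite direction to Wasl, and its log2 ratio was -1.17 as deposited and -0.98 when GC-adjusted, within 2-fold. Epb41l3 had 18.7 and 42.9 TPM, with log2 ratios of -1.16 and -1.31, and Scin, an actin-severing protein, had 18.1 and 33.0 TPM, within 2-fold on both scales.

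Marker genes of other cells are given because muscle and cumulus cells express much actin and myosin. All 18 oocyte and zygote markers were in the table, at 62233 TPM in PB2 against 68656 in the zygote. Of 18 cumulus and granulosa cell markers, 4 were in the table, at 188.0 TPM in PB2 against 248.7 in the zygote, with Serpine2 the highest (105.4 and 167.3 TPM). Of 20 muscle markers, 6 were in the table, at 105.1 TPM in PB2 against 86.5 in the zygote, with Cnn1 the highest (65.9 and 53.5 TPM). None of the markers in the table was at 0, and their part in the values of the cortex genes was not tested.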

How the data were processed

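RNA-seq values of 1 PB2 library and 1 zygote library were analysed, grouped by the sample titles. The authors deposited TPM values, rounded to 1 decimal, and how TPM was computed is not stated in the sources used here. The submitters' processing notes name CASAVA, HISAT2 2.0.4, HTSeq 0.6.1p1 and DESeq2 1.18.1 and the assemblies OryCun2.0, a rabbit genome, and GRCm38, while the identifiers in the table are those of mouse genes. TPM carries no read numbers, and the sequencing depth is therefore unknown and no counting interval is given. The genes in the table account for 89.8% (PB2) and 92.7% (zygote) of the total. Amplification of cDNA and the adjustment to a fixed total can both shift proportions.

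From TPM, log2 ratios were computed with a pseudocount of 1 for genes that reached 1 TPM in one library or both, and those past 2-fold were counted. With 1 library per group no test was possible. Transcript length and GC content were read from each gene's longest protein-coding transcript in GENCODE M21, matched by identifier, and trends on them were removed by lowess with a span of 0.3. The alternatives were no filter, a filter at 5 TPM, a smaller pseudocount (0.1 or 0.01), a threshold of 1.5-fold or 4-fold, centring, scaling to a median ratio of 1, rescaling after mitochondrial genes and the 50 top genes were left out, and removal of either trend. Genes named are the members past 2-fold, the highest of each class, the members of listed pairs of related genes and those under 1 TPM in both libraries, and, of the regulators that reached 10 TPM, the 4 furthest in each direction. The other members were named to complete their classes. The values of 1 member are not reported here, though counts and sums over the members include it. The members and lists were chosen with earlier results of these data known. Pairs were compared by coding sequence, since no protein sequences were used. The functions were tested on simulated data. Tables were handled with pandas 2.3.3 and numpy 2.4.6 under Python 3.11.15, trends were fitted with statsmodels 0.14.6, correlations came from scipy 1.17.1 and plots from matplotlib 3.10.9.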

Additional observations from a re-analysis of the deposited data

How the results depend on the processing

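The 2 libraries have no replicates and no depth, so neither the spread between samples nor counting error is known, and ratios of genes under about 1 TPM are coarse. No paired analysis was possible because PB2 and the zygote have 1 library apiece. The counts moved as follows, and except where the construction shows it the cause was not tested. Of the cortex genes, 10 passed 2-fold towards PB2 and 4 towards the zygote. These became 6 and 8 with the log2 ratios centred, 4 and 4 with the GC trend removed, 5 and 8 with the length trend removed, 18 and 9 at 1.5-fold, and 1 and 0 at 4-fold. Of the regulators outside the symbol rule, 22 and 4 were past 2-fold. These became 14 and 7 when centred, 9 in PB2 with the GC trend removed, 13 and 9 with the length trend removed, 50 and 13 at 1.5-fold, 2 and 0 at 4-fold, and 34 and 35 in PB2 with pseudocounts of 0.1 and 0.01. The counts over all 10645 genes moved too, from 2009 and 861 to 1383 and 1291 when centred. Of 10606 genes they were 963 and 1162 with the GC trend removed and 1284 and 1242 with the length trend removed. With pseudocounts of 0.1 and 0.01, 2617 and 2632 of the 10645 passed 2-fold towards PB2. At 1.5-fold and 4-fold the counts over all genes were not taken.

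The median log2 ratio of the cortex genes, 0.20, reversed to -0.011 when centred and -0.029 with the GC trend removed. That of the Arp2/3 complex, 0.12, reversed to -0.089 and -0.052 there, and that of the anillin and ERM genes, 0.37, to -0.11 with the GC trend removed. Scaling to a median ratio of 1, rescaling, no filter and the filter at 5 TPM kept each count of cortex genes within 1.5 times its value and each class median that could be taken (the 5 TPM filter left under 3 tropomyosins and under 3 anillin and ERM genes) in its direction. Over all alternatives Actn4 lay between 1.57 and 2.40, Wasl between 0.93 and 1.41, Pfn4 between -1.91 and -1.54, Sept14 between -1.41 and -1.20 and Rdx between 0.73 and 1.18.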
